A study of Mus musculus with 56 samples.

Results

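The livers of miR-122 floxed mice were compared 7 days after Cre delivery with those of uninjected floxed mice for every microRNA other than miR-122 that averaged at least 10 RPM over the 6 libraries. RPM here are reads of a microRNA per 1000000 microRNA reads other than those of miR-122. Of the 478 other microRNAs listed, 215 met that level and 263 did not, and the 215 held at least 99.9% of the other reads in each liver. The closest microRNA below the level was miR-219-1 at a mean of 9.85 RPM, and the closest above it was miR-215 at 10.1 RPM.

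Both groups carried LoxP sites around the sequence of pre-miR-122 on a 129Sv/J background and consisted of 3 mice, named A, B and C, with 1 whole-liver small RNA library each. The day 7 mice had received rAAV8, a virus that transduces hepatocytes from the blood, carrying Cre under the Ef1a promoter, which is active in many cell types. The adult mice of day 0 had received no vector. The vector, Cre itself and the loss of miR-122 therefore cannot be told apart here, and the sex and exact age of the mice were not given. In whole liver, fewer cells of a type and less microRNA per cell cannot be told apart either.

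A microRNA is cut from a hairpin and guides Argonaute to messenger RNAs that pair with its seed, the bases near its 5′ end, and microRNAs with the same seed share many targets. miR-122 is made by hepatocytes and dominates their microRNA pool. Because mature microRNAs are often long lived, their level can lag behind a change of the gene, and a sequencing library reports each microRNA only as a share of the whole.

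The sequences below are those of miR-34a and of the other microRNAs whose values are discussed in detail, with relatives that share their seed, so that the values can be read by seed. They are the mature sequences of RefSeq on GRCm38.p6, 5′ to 3′, with the seed (bases 2 to 8) in capitals; 186 of the 215 microRNAs were matched to RefSeq by symbol. The first 3 share the miR-34 seed.
miR-34a-5p: uGGCAGUGucuuagcugguugu
miR-34b-5p: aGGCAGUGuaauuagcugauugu
miR-449a-5p: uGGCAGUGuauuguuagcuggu
The next 4 share the seed of the miR-15 and miR-16 family.
miR-15b-5p: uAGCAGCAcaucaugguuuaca
miR-15a-5p: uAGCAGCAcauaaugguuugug
miR-16-5p: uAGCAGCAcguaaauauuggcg
miR-195a-5p: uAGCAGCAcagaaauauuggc
miR-103 and miR-107 differ from each other at 1 base, G22C from miR-103 to miR-107 counted from the 5′ end, and their bases 1 to 7 are the letters that the miR-15 family has at bases 2 to 8.
miR-103-3p: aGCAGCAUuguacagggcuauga
miR-107-3p: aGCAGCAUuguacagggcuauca
miR-221 and miR-222 share a seed and are neighbours on chromosome X, while miR-455, miR-706, miR-376b and miR-1198 have seeds of their own in this set.
miR-221-3p: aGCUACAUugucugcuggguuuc
miR-222-3p: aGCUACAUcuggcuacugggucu
miR-455-5p: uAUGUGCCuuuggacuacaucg
miR-455-3p: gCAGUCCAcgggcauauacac
miR-706: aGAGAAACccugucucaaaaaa
miR-376b-3p: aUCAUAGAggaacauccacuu
miR-1198-5p: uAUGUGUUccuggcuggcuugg
The last 3 sets are abundant families of adult liver, of which the miR-26 family had the lowest median difference of the families examined.
miR-26a-5p: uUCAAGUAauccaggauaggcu
miR-26b-5p: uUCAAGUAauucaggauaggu
let-7a-5p: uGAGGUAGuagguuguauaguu
let-7f-5p: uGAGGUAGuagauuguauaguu
miR-21a-5p: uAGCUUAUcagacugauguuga

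The libraries held 618499 to 808306 microRNA reads at day 0 and 399818 to 716664 at day 7, of which 215898 to 252521 and 178141 to 346764 were reads of microRNAs other than miR-122. A count of 0 allows up to 3 reads, which came to between 8.65 and 16.8 RPM by library. Intervals and limits from counts cover counting error only, because PCR copies of a molecule were not marked. MicroRNAs typical of pancreas, which a liver sample could carry over, had 1 read in 1 of the 6 libraries, and those of striated muscle were at or under 0.00930% of the other reads.

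miR-122, the targeted gene, was lower at day 7 but still the most abundant microRNA. It took 73.3%, 59.2% and 66.7% of all microRNA reads in day 0 mice A, B and C. At day 7 it took 55.4%, 48.9% and 51.6%. The groups did not overlap, with means of 66.4% ± 7.06 and 52.0% ± 3.31 (SD, n = 3 each), and the exact two-sided permutation test gave p = 0.1, the smallest that 3 mice against 3 allow. Counted per read of another microRNA, it was at 2.06 ± 0.650 at day 0 and 1.09 ± 0.146 at day 7 (SD, n = 3 each).

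miR-34a was higher at day 7 and was the only one of the 215 microRNAs past the threshold. miR-34a is induced by p53 and slows the cell cycle, and its sequence lies at chr4:150068473-150068494 on the plus strand (GRCm38.p6), within no other gene of the RefSeq table. Its level at day 0 was 222.4, 139 and 76.8 RPM in mice A, B and C, on 48, 35 and 19 reads. Its level at day 7 was 2246, 1591 and 796 RPM, on 400, 479 and 276 reads. Every day 7 mouse lay above every day 0 mouse, and the lowest of day 7 was well above the highest of day 0. The group means were 145.9 ± 73.1 and 1544 ± 726 RPM (SD, n = 3 each), a ratio of 10.6. The limma fit on log2(RPM + 1) gave a log2 fold change of 3.40 (SE 0.66, 95% interval 2.03 to 4.77) with a Benjamini-Hochberg adjusted p of 0.0115. The call was lost without day 0 mouse C (limma adjusted p = 0.117), without day 7 mouse A (0.131) and without day 7 mouse B (0.0710), while the log2 fold change remained between 3.00 and 3.81 whichever mouse was left out. It was also lost when the 263 low microRNAs were tested too (limma adjusted p = 0.111). Over all settings run, the adjusted p lay between 0.00115 and 0.131.

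Relatives with the miR-34a seed were barely measured. miR-34b, which is made from a separate transcript, had 0, 1 and 0 reads at day 0 and 2, 2 and 2 reads at day 7. miR-34c, of the same family, had 0, 2 and 0 reads at day 0 and 2, 0 and 1 reads at day 7. The miR-34b ratio of 5.20 had a 95% counting interval of 0.631 to 239, so a difference was not detectable at this depth. miR-449a and miR-449c had no read in any of the 6 livers, which allows up to 3 reads each.

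**Figure D1:**
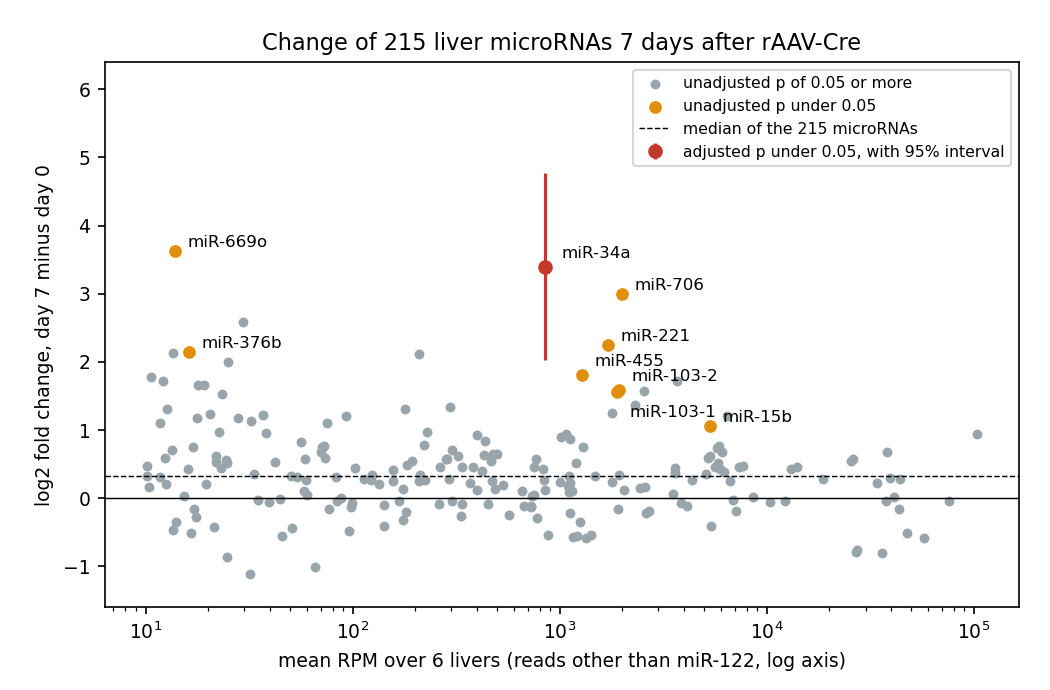
Log2 fold change of each of the 215 microRNAs, day 7 minus day 0, against its mean RPM over the 6 livers on a log axis. miR-34a is drawn in red with its 95% interval of 2.03 to 4.77, the other 8 microRNAs with an unadjusted p under 0.05 are orange and named, and the dashed line is the median of 0.32. The widest scatter is among microRNAs under 100 RPM.

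The call of 1 higher microRNA of 215 was 0.465%, and 0 of 215 were called lower. At an unadjusted p under 0.05 in the limma fit there were 9 (4.19%), and these 9 were higher at day 7: miR-34a, miR-669o, miR-706, miR-221, miR-376b, miR-455, miR-103-1, miR-103-2 and miR-15b. In 18 microRNAs (8.37%) the 3 day 7 mice lay above the 3 day 0 mice, and in 0 they lay below. By the sign of the log2 fold change alone, 156 were higher and 59 lower at day 7 (72.6% higher), with a median of 0.32 and quartiles of −0.04 and 0.68. Because the level for testing was a mean over both groups, 13 of the 215 met it only through day 7 and so had to be higher there, 2 of the 9 and 3 of the 18 among them, and 2 of the 215 met it only through day 0. The median depended on the scale: it was 0.81 when RPM were taken over all reads with miR-122 included, and −0.04 when each library was centred on its median log2 ratio, which lowered each log2 fold change by 0.36. The median 95% interval reached 1.34 log2 units to either side, and only 2 microRNAs had an interval inside ±1, so that for the other 213 the interval reached beyond a 2-fold difference in at least one direction.

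miR-669o, miR-706, miR-376b and miR-15b had an unadjusted p under 0.05 and no overlap, but did not pass the adjustment. miR-669o and miR-376b, with means under 10 RPM at day 0, met the level for testing only through day 7, so their direction was fixed by that level and their values are a description. With only the 6 libraries of days 0 and 7 in the limma fit, miR-376b (unadjusted p = 0.083) and miR-15b (0.077) did not reach the unadjusted threshold, and without day 45 in the fit miR-376b did not (0.055). miR-669o, one of a large repeat-like cluster of microRNAs in an intron of Sfmbt2, had 0, 7.84 and 0 RPM at day 0 and 28.1, 29.9 and 17.4 RPM at day 7. These are 2 reads against 20, a ratio of 8.67 with a 95% counting interval of 2.11 to 76.5. Its fitted log2 fold change was 3.62 (SE 0.96, limma adjusted p = 0.144) with 1 added to the RPM, and was 4.29 with 0.5 added and 1.51 with 10 added. Without day 0 mouse B, which held its only day 0 reads, the limma adjusted p was 0.0186, in a range of 0.0186 to 0.856 over all settings run. The other 6 tested microRNAs of that cluster ranged from −0.16 to 1.52. Of the 7, 5 met the level for testing only through day 7, and near-identical hairpins of the cluster can share reads.

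miR-706 was variable in both groups. Its RPM were 292, 166 and 1195 at day 0 and 1684, 5490 and 3227 at day 7. Every day 7 mouse was higher, yet day 0 mouse C was within a factor of 1.41 of day 7 mouse A, and the log2 fold change of 3.00 had an SE of 1.12 (limma adjusted p = 0.667). The RefSeq entry of miR-706 lies within Wnk1 at chr6:120034290-120034311 on the minus strand. Because reads were aligned to microRNAs, miR-706 cannot be told apart from RNA of other places with the same sequence. Its first 16 bases, AGAGAAACCCTGTCTC as DNA, occurred on either strand in 28 of 32851 RefSeq promoters (250 bases before to 50 after the start, 0.0852%), against 0 or 1 for the other sequences printed above.

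miR-1198 had a similar pattern without reaching the unadjusted threshold. It had 69.6, 47.5 and 96.9 RPM at day 0 and 145.9, 571 and 320 RPM at day 7, with no overlap and a log2 fold change of 2.11 (SE 1.05). As with miR-706, day 7 mouse B was the highest and mouse A the lowest of its group. miR-1198 lies within Gripap1 on chromosome X, far from miR-706.

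miR-15b had the tightest groups of these microRNAs. Its RPM were 2779, 3330 and 4290 at day 0 and 8622, 6054 and 6898 at day 7. The lowest day 7 mouse was 1.41 times the highest day 0 mouse, and the means were 3467 ± 765 and 7192 ± 1309 RPM (SD, n = 3 each). The log2 fold change of 1.06 (SE 0.41, 95% interval 0.20 to 1.92) had a limma adjusted p of 0.667. miR-15b and miR-16-2 are made from neighbouring hairpins within Smc4 on chromosome 3, at chr3:69009775-69009796 and chr3:69009918-69009939. miR-16-2 had 4507, 10704 and 4068 RPM at day 0 and 6523, 10887 and 7221 RPM at day 7, which overlap, with a log2 fold change of 0.46 (SE 0.49). miR-16-1, the copy beside miR-15a within Dleu2 on chromosome 14, has the same mature sequence, and its log2 fold change was 0.47 (SE 0.50), so that reads of the copies could not be kept apart. miR-15a, which shares the seed, overlapped between groups at 2333 to 11084 RPM at day 0 and 4640 to 7987 RPM at day 7 (log2 0.39, SE 0.60). Of the 7 tested members of this family, which restrains cyclins and BCL2, 6 were higher by sign, with a median of 0.46 beside 0.32 over all 215. The family's median was 0.097 after centring, 0.99 over all reads, 0.92 without day 0 mouse B and 0.16 without day 0 mouse C.

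**Figure D2:**
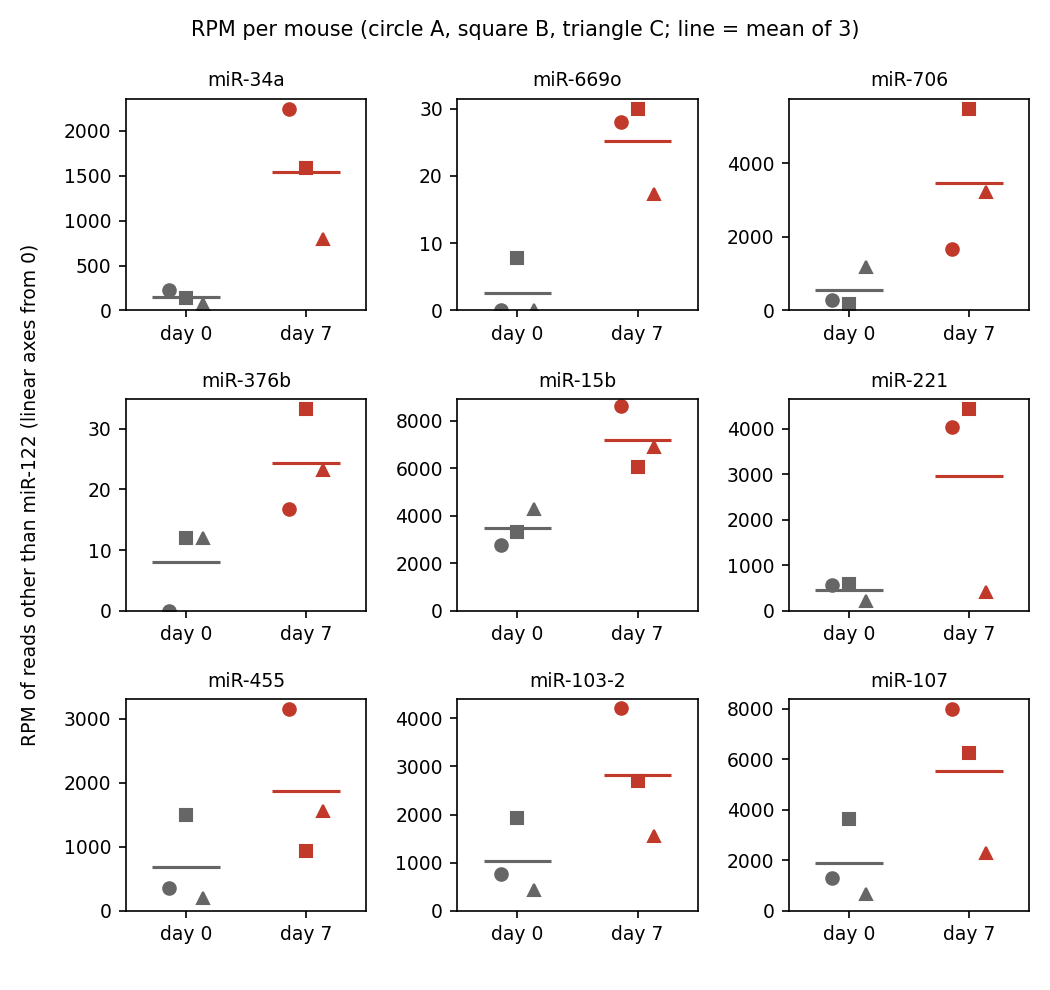
RPM per mouse at day 0 (grey) and day 7 (red) for 9 microRNAs, on linear axes from 0, with mice A, B and C as circle, square and triangle and the group mean as a line. miR-34a, miR-669o, miR-706, miR-376b and miR-15b show no overlap, while miR-221, miR-455, miR-103-2 and miR-107 overlap between groups.

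miR-221, which targets cell cycle inhibitors, was high in 2 of the 3 day 7 livers. It had 556, 578 and 210 RPM at day 0. At day 7 mice A and B had 4036 and 4441 RPM and mouse C had 409.4 RPM. Mouse C was thus inside the range of day 0, and the log2 fold change of 2.25 (SE 0.79) had a limma adjusted p of 0.667, which became 0.0125 (log2 3.37) without that mouse and lay between 0.0125 and 0.997 over all settings run. Its neighbour miR-222 did not follow: it had 306, 79.1 and 133.2 RPM at day 0 and 129, 99.7 and 106.6 RPM at day 7 (log2 −0.41, SE 0.69). The pair lies at chrX:19146307-19146329 and chrX:19146901-19146923 on the minus strand.

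miR-455 was higher at day 7 by the unadjusted test only, and was chosen for mention after its values were seen. It is hosted by the collagen gene Col27a1 on chromosome 4 and had 352, 1489 and 198 RPM at day 0 and 3155, 927 and 1551 RPM at day 7. Day 0 mouse B lay above day 7 mouse B, so the groups overlapped, and the log2 fold change was 1.81 (SE 0.70, limma adjusted p = 0.667).

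The miR-103 and miR-107 family, whose members lie within pantothenate kinase genes and are known to act on insulin signalling in liver, was higher by sign in 3 of 3 members. miR-107, within Pank1, had 1311, 3635 and 678 RPM at day 0 and 8005, 6260 and 2293 RPM at day 7 (log2 1.72, SE 0.83, limma adjusted p = 0.814). miR-103-2, within Pank2, had 764, 1925 and 436 RPM at day 0 and 4205, 2687 and 1563 RPM at day 7 (log2 1.59, SE 0.66, limma adjusted p = 0.768). In each of them day 0 mouse B exceeded day 7 mouse C, so the groups overlapped. miR-103-1, within Pank3, has the mature sequence of miR-103-2, and its log2 fold change of 1.56 (SE 0.66) differed from that of the other copy by 0.03. The 3 values are therefore not separate evidence. The family took 0.283%, 0.753% and 0.151% of the other reads at day 0 and 1.64%, 1.15% and 0.530% at day 7. Without day 0 mouse B the median of its log2 fold changes was 2.18, and without day 0 mouse C it was 1.10.

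The most abundant microRNAs did not pass the test in either direction. The 10 most abundant of the 215 held 46.8% to 55.4% of the other reads by liver and the 20 most abundant 70.1% to 82.8%. miR-21, which lies within Vmp1 and is known to rise in many kinds of injury and growth, was the most abundant by mean, and no group mean describes it well. It had 45364, 223886 and 16960 RPM at day 0 and 153143, 110210 and 71925 RPM at day 7. The day 0 mice spanned more than the day 7 mice and enclosed them, and the log2 fold change was 0.94 (SE 0.69, limma adjusted p = 0.980). Leaving out day 0 mouse B moved it to 1.94 and leaving out day 0 mouse C to 0.08.

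The miR-26 family, whose members lie within the phosphatase genes Ctdspl, Ctdsp2 and Ctdsp1, was lower by sign in 3 of 3 members. miR-26b had 59116, 20082 and 63782 RPM at day 0 and 22870, 24026 and 25960 RPM at day 7. Day 0 mouse B was the lowest of the 6 livers while day 0 mice A and C were the highest, so the groups overlapped. The log2 fold change was −0.80 (SE 0.46, 95% interval −1.77 to 0.16, limma adjusted p = 0.913). miR-26a-1 and miR-26a-2, copies with 1 mature sequence, gave −0.78 and −0.76. The family took 14.7%, 4.27% and 17.0% of the other reads at day 0 and 4.95%, 5.62% and 7.56% at day 7. Its median of −0.78 kept its sign under both other scalings (−0.25 over all reads and −1.15 after centring), and was −1.45 without day 0 mouse B and −0.37 without day 0 mouse C.

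The let-7 and miR-98 family, a marker of differentiated cells, took 46.0%, 19% and 53.1% of the other reads at day 0. At day 7 it took 32.1%, 33.7% and 37.1%, inside the day 0 range. let-7a-2 had 89019, 32290 and 122304 RPM at day 0 and 54216, 72611 and 82477 RPM at day 7, with a log2 fold change of −0.04 (SE 0.51, 95% interval −1.11 to 1.04). let-7f-2 gave −0.58 (SE 0.55), let-7c-2 0.28 (SE 0.46), let-7g −0.05 (SE 0.47) and let-7b 0.23 (SE 0.53). Of the 11 tested members 6 were higher by sign, and the sign of the family's median of 0.02 depended on scale and mouse. It was −0.34 after centring and 0.56 over all reads, and −0.32 without day 0 mouse B and 0.36 without day 0 mouse C. let-7a and let-7f differ by G12A, and reads with mismatches can pass from one to the other.

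**Figure D3:**
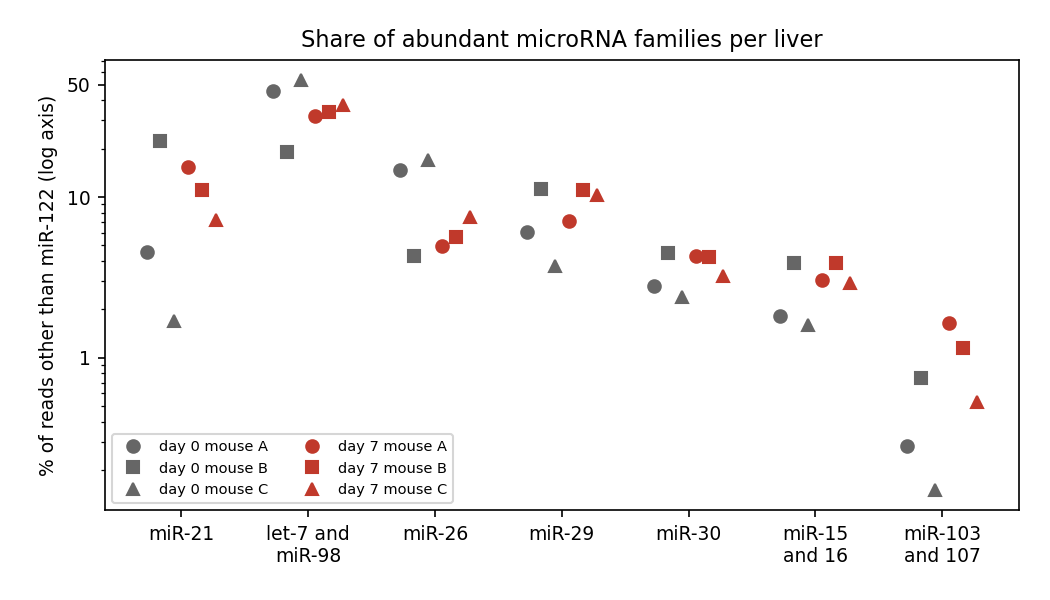
Share of the reads other than miR-122 held by miR-21 and 6 microRNA families in each of the 6 livers, in percent on a log axis, with day 0 in grey and day 7 in red. Day 0 mouse B (square) is lowest for let-7 and miR-26, at 19% and 4.27%, and highest for miR-21, at 22.4%; the day 7 mice lie closer together in these 3.

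The spread among the uninjected mice was wide and had a common form. The median within-group SD on the log2 scale was 0.87 at day 0 and 0.58 at day 7, and 152 of the 215 microRNAs varied more at day 0. Day 0 mouse B lay over 2-fold outside both of its group mates for 94 microRNAs, mouse C for 51 and mouse A for 11, against 23 to 36 for the day 7 mice. Relative to the day 0 mean, the median microRNA was 0.50 higher in day 0 mouse B and 0.51 lower in mouse C on the log2 scale, and 0.19 to 0.46 higher in the day 7 mice. Day 0 mouse B also had the lowest miR-122 share of its group. No label sets this mouse apart, so it stayed in. The median log2 fold change of the tested microRNAs was 0.58 without day 0 mouse B and 0.08 without day 0 mouse C.

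Other abundant liver families overlapped between the groups. miR-192, a hepatocyte and gut microRNA, had 32001, 68652 and 29104 RPM at day 0 and 53025, 13099 and 65782 RPM at day 7, and day 7 mouse B was the lowest of the 6 (log2 −0.16, SE 0.55). miR-29a, which restrains collagen genes, had 28189, 38777 and 21722 RPM at day 0 and 38386, 46350 and 55392 RPM at day 7, overlapping by a single pair of mice (log2 0.68, SE 0.43, limma adjusted p = 0.955). The 4 tested miR-29 members had a median of 0.40 and 3 were higher by sign; the median was 0.034 after centring, 0.93 over all reads, 0.93 without day 0 mouse B and −0.18 without day 0 mouse C. The 6 miR-30 members had a median of 0.37 (0.0030 after centring, 0.90 over all reads, 0.63 without day 0 mouse B, 0.057 without C) with 4 higher, from −0.11 for miR-30e to 0.77 for miR-30b. In the miR-23, miR-27 and miR-24 clusters 6 of 6 were higher, 2 of them copies of miR-24. Their median of 0.30 was close to the 0.32 of all 215. It was −0.07 after centring, 0.83 over all reads, 0.69 without day 0 mouse B and −0.04 without day 0 mouse C. The 2 miR-101 members gave 0.57 and 0.36, with a median that was 0.097 after centring, 0.99 over all reads, 1.12 without day 0 mouse B and −0.27 without day 0 mouse C. In the clusters of the miR-17 family, known for growth control, 9 of the 12 tested were higher with a median of 0.29 (−0.071 after centring, 0.82 over all reads, 0.53 without day 0 mouse B, −0.20 without C), and miR-17 itself was at −0.56 (SE 0.56). The 6 members of the miR-181 family had a median of 0.19, which was −0.17 after centring, 0.71 over all reads, 0.40 without day 0 mouse B and 0.36 without day 0 mouse C.

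The imprinted cluster at chr12qF1, between Dlk1 and Dio3, is silent in most of adult liver and is the locus on which the study centred; it was chosen there on mice of this series, so its direction here is not independent evidence. Of its 52 listed microRNAs 10 reached 10 RPM, and 4 of these, miR-154, miR-376b, miR-376c and miR-382, did so only through day 7, so no count by direction is drawn from the 10. None of the 10 passed the adjustment. In the limma fit 1 of the 10, miR-376b, had an unadjusted p under 0.05, beside 4.19% of all 215. Its direction was fixed by the level for testing, so its values are a description. miR-376b had 0, 12 and 12 RPM at day 0 and 16.8, 33.2 and 23.1 RPM at day 7. These are 6 reads against 21, a ratio of 3.03 with a 95% counting interval of 1.18 to 9.19, and the limma log2 fold change was 2.15 (SE 0.99, adjusted p = 0.814). It was 0.92 without day 0 mouse A, which had no read of it, and at most 2.77 with another mouse left out. miR-541 had 9.36, 31.6 and 28.2 RPM at day 0 and 61.7, 59.8 and 31.6 RPM at day 7 (log2 1.22, SE 0.65). Its closest mice, day 0 B and day 7 C, were nearly level. The more abundant miR-127 and miR-376a gave −0.15 (SE 0.87) and 0.11 (SE 0.62). Summed over the 52 listed, the cluster had 281, 301 and 338 RPM at day 0 and 555, 478.7 and 367 RPM at day 7, on at least 61 reads in each liver. The means of 307 ± 28.7 and 466.9 ± 95 RPM (SD, n = 3 each) came from groups that did not overlap. At the Igf2 and H19 loci miR-483 had 0, 0 and 0 reads at day 0 and 0, 1 and 2 reads at day 7, and miR-675 had no read, so neither reached the level for testing. miR-296 of the Gnas locus had 18.3, 0 and 12 RPM at day 0 and 11.2, 19.9 and 8.68 RPM at day 7.

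MicroRNAs that mark the cell types of liver tissue did not pass the test in either direction. Their counts by sign stand beside 72.6% higher and a median of 0.32 over all 215. These counts include hairpin copies, such as miR-125b-1 and miR-125b-2, which are not separate evidence. Of 12 tested blood and immune cell microRNAs 8 were higher by sign, with a median of 0.25 (0.14 without day 0 mouse B, 0.18 without C, −0.11 after centring, 0.78 over all reads). miR-451 of red cells had 6359, 18276 and 7890 RPM at day 0 and 31267, 15364 and 4949 RPM at day 7, overlapping widely (log2 0.46, SE 0.69). miR-142, which blood cells make, had 2525, 1996 and 4331 RPM at day 0 and 2004, 2810 and 2581 RPM at day 7 (log2 −0.20, SE 0.55). miR-342 was the 1 member of the 12 without overlap, beside 8.37% of all 215, at 83.5, 115 and 100.8 RPM at day 0 and 213, 193 and 366 RPM at day 7 (log2 1.31, SE 0.64, limma adjusted p = 0.814). miR-126 of endothelial cells had 37749, 42476 and 38189 RPM at day 0 and 30611, 31352 and 65338 RPM at day 7 (log2 0.01, SE 0.41). Of 10 stellate and smooth muscle microRNAs 8 were higher, with a median of 0.43 that was 0.061 after centring, 0.95 over all reads, 0.86 without day 0 mouse B and 0.0080 without day 0 mouse C. Of 10 epithelial and bile duct microRNAs 9 were higher, with a median of 0.66 that was 0.29 after centring, 1.16 over all reads, 0.99 without day 0 mouse B and −0.02 without day 0 mouse C. Their most abundant member, miR-31, had 741, 3081 and 601 RPM at day 0 and 4558, 3218 and 1600 RPM at day 7 (log2 1.36, SE 0.70, limma adjusted p = 0.814). Of 9 hepatocyte-enriched microRNAs 7 were higher, with a median of 0.19 that was 0.67 without day 0 mouse B, −0.18 without day 0 mouse C, −0.18 after centring and 0.72 over all reads. The 2 tested striated muscle microRNAs, miR-1-1 and miR-1-2, met the level for testing only through day 0, so no direction is drawn from them. The 4 neural ones had a median of −0.18 (−0.54 after centring, 0.31 over all reads, −0.29 without day 0 mouse B, −0.30 without C). As shares of the other reads, blood and immune cell microRNAs took 1.42% to 2.5% at day 0 and 1.20% to 3.86% at day 7. Their part in the results above was not tested.

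The other injected mice of the series, of earlier and later days, give miR-34a a course around day 7, although the day 0 mice are the reference throughout. The single mice of days 1, 2, 3 and 10 had 399, 1766, 1019 and 2502 RPM. The 3 mice of day 14 had 2734, 2284 and 2450 RPM and those of day 21 had 1522, 1403 and 1257 RPM. Of the 21 injected mice, which include the 3 of day 7 already known to be higher, 20 lay above the highest day 0 mouse. The exception was the mouse of day 200 at 114 RPM. The mice of day 45 were spread widely, at 2810, 756 and 304 RPM. The highest value was 8133 RPM in the mouse of day 17.

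**Figure D4:**
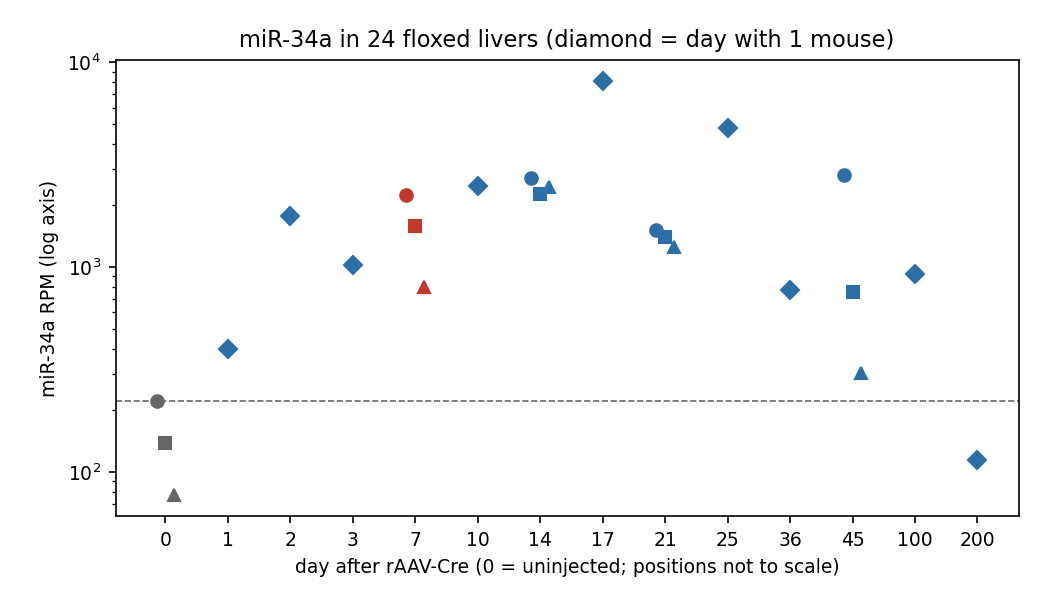
miR-34a RPM on a log axis in 24 floxed livers by day after rAAV-Cre, with day positions not to scale, day 0 in grey, day 7 in red and other days in blue. The dashed line is the highest day 0 mouse at 222.4 RPM, and 20 of 21 injected mice, the 3 of day 7 included, lie above it.

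Other microRNAs named above took different courses after day 7. miR-15b was above its highest day 0 mouse in 20 of the 21 injected mice, with log2 fold changes from day 0 of 1.24 at day 14, 1.25 at day 21 and 1.29 at day 45 beside 1.06 at day 7 (SE 0.41 each). The values of miR-376b at the same 4 times, in order of time, were 2.15, 3.51, 4.82 and 8.45 (SE 0.99 each). miR-342 gave 1.31, 2.43, 3.49 and 2.37 (SE 0.64 each) and exceeded its day 0 mice in 21 of 21 injected mice. miR-706 gave 3.00, 3.72, 1.75 and 0.12 (SE 1.12 each), and its mouse C of day 14 alone had 37932 RPM. miR-221, which overlapped at day 7 and exceeded its day 0 mice in 15 of the 21, gave 2.25 at day 7 and 0.86, 0.75 and 1.24 later (SE 0.79 each). Fewer injected mice exceeded day 0 for miR-455 (5 of 21, log2 −0.01 at day 45), miR-103-2 (9), miR-103-1 (10) and miR-107 (10). These contrasts share the 3 day 0 mice.

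The remaining microRNAs without overlap were miR-1198, miR-505, miR-421, miR-744, miR-423, miR-574, miR-361, miR-425, miR-324 and miR-130b, which with miR-342, miR-541 and miR-154 were named after their values were seen. miR-423 had 1033, 602 and 1352 RPM at day 0 and 1746, 1627 and 1425 RPM at day 7. miR-744 had 172, 277 and 408 RPM at day 0 and 550, 468 and 525 RPM at day 7. miR-505 had 50.9, 23.8 and 76.8 RPM at day 0 and 89.8, 116 and 92.4 RPM at day 7. The lowest day 7 mouse was 1.05 times the highest day 0 mouse for miR-423, 1.15 times for miR-744 and 1.17 times for miR-505, and miR-541, at 1.00, had the narrowest gap of the 18. The smallest log2 fold change among the 18 was 0.46.

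The largest differences toward day 0 were smaller than those toward day 7. miR-183, of a sensory and epithelial cluster, had 37.1, 63.4 and 24.3 RPM at day 0 and 5.61, 23.3 and 37.4 RPM at day 7 (log2 −1.11, SE 0.75). miR-190 had 121, 107.03 and 36.3 RPM at day 0 and 16.8, 59.8 and 54.8 RPM at day 7 (log2 −1.01, SE 0.71). In both the groups overlapped, and these were the only members under −1.

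Of the 263 microRNAs below the level for testing, 119 had no read in the 6 livers, 55 had reads at day 7 only and 17 at day 0 only, and 2 had a read in all 6 livers. The day 7 libraries together held more reads of other microRNAs than those of day 0. Among the 215, 20 sets of hairpin copies (40 hairpins) share a name and mostly a mature sequence, and in 13 of the sets the log2 fold changes of the copies lay within 0.2 of each other. Counts by sign over the 215 and in the lists include such copies, which are not separate evidence.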

How the data were processed

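For each small RNA library the authors trimmed barcodes and adaptors, aligned the reads to miRBase microRNAs with Bowtie 0.12.7 allowing mismatches, and deposited RPM (reads per 1000000 microRNA reads) with 1 added. The values are per hairpin, so both arms are pooled, and how reads that match several hairpins were counted is not given in the sources used here. The added 1 was removed and RPM were rescaled to reads other than miR-122. Reads were recovered from the step between low values: at least 99.6% of values under 20000 RPM were whole within 0.06 RPM in each of the 6 libraries. A table of FPKM from RNA-seq holds no day 7 library and was not used. All columns used map to a sample by name.

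MicroRNAs that averaged 10 RPM or more over the 6 libraries, 215 in all, were tested with limma 3.58.1 in R 4.3.3 (lmFit and eBayes with trend) on log2(RPM + 1), in 1 fit of the 15 libraries of days 0, 7, 14, 21 and 45, so that the spread is estimated over 5 groups of 3 mice. P-values were adjusted by Benjamini-Hochberg over the 215, with a threshold of 0.05. Fold changes are on the log2(RPM + 1) scale, on which values of microRNAs with few or no reads depend on the added 1. The miR-122 share was compared with the exact two-sided permutation test of scipy 1.17.1. Ratios of few reads have exact conditional 95% intervals. On simulated data the fit called 4% of changes of 1 log2 unit, 53.6% of those of 2 and 95.6% of those of 4. Named microRNAs were miR-122, those called, the 10 largest rises and falls with an unadjusted p under 0.05 and no overlap, the 20 most abundant, and up to 4 of the most abundant in each list. Members and lists were chosen with earlier results of these data known. Alternatives covered the samples in the fit, the filter, the added value, the scaling, summed copies, a block for the replicate letter and each mouse left out. Python 3.11.15 with matplotlib 3.10.9, pandas 2.3.3 and numpy 2.4.6 was used for tables and plots.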

Additional observations from a re-analysis of the deposited data

How the results depend on the processing

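The count of 1 called microRNA was 0 with no filter on low values (18 of 478 at an unadjusted p under 0.05 in limma) and between 0 and 2 when 1 mouse was left out. It was 0 without day 0 mouse C (6 at an unadjusted p under 0.05), day 7 mouse A (6) or day 7 mouse B (5), and 2 without day 0 mouse B, where miR-669o was added (log2 4.67, limma adjusted p = 0.0186), or day 7 mouse C, where miR-221 was added. It stayed at 1 under the other 10 settings and without day 0 mouse A. The added miR-669o met the level for testing only through day 7. Its only day 0 reads were in the omitted day 0 mouse B, so that call is no evidence of a rise. miR-34a kept its direction throughout, with log2 fold changes of 3.00 to 3.81 with 1 mouse left out and limma adjusted p from 0.00115 to 0.131 over all settings; with no filter its log2 fold change was 3.40. The fit over all reads, miR-122 included, had 32 microRNAs at an unadjusted p under 0.05, all 32 higher, and the centred fit had 6, of which 5 were higher. The median of all tested was 0.11 with no filter, 0.81 over all reads, −0.043 after centring, and 0.082 to 0.58 with 1 mouse left out. Over all reads, let-7a-2 (0.50), let-7f-1 (0.023), miR-192 (0.37), let-7g (0.49) and miR-29b-2 (0.49) changed sign. After centring, let-7c-2 (−0.085), miR-126 (−0.35), let-7c-1 (−0.063), let-7b (−0.14) and let-7d (−0.088) did, and with copies summed miR-29b did (0.051). With 1 mouse left out, the sign depended on the mouse for let-7a-2 (−0.60 to 0.36), let-7b (−0.32 to 0.69), let-7c-1 (−0.13 to 0.58), let-7c-2 (−0.19 to 0.60), let-7d (−0.14 to 0.59), let-7g (−0.19 to 0.18), miR-126 (−0.35 to 0.20), miR-192 (−0.60 to 0.56), miR-29b-2 (−0.79 to 0.51) and miR-451 (−0.16 to 1.17). The scalings act by their own construction; the cause of the other changes was not tested. With the replicate block for the letters A, B and C, 1 microRNA was called (miR-34a, limma adjusted p = 0.00135) and 12 had an unadjusted p under 0.05; same-lettered mice deviated together with correlations of −0.02, 0.22 and 0.36, so the letters were not taken to pair the mice. The log2 ratio of the miR-122 share was −0.35, and −0.43 to −0.28 with 1 mouse left out, where the smallest exact p is 0.2. The planned count models on recovered reads were not run, so limma on log2(RPM + 1) stands without a count model beside it. At these depths microRNAs near 10 RPM rest on a few reads per library, and their fitted fold changes move with the value added before the log.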
